A study of Mus musculus with 18 samples.

Results

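The 10 genes described here are activity-dependent immediate early genes, whose transcription rises within minutes to hours of strong synaptic input without a need for new protein. They were chosen by symbol in the deposited gene tables: Npas4 (gene ID 225872), Fos (14281), Fosb (14282), Junb (16477), Egr1 (13653), Egr2 (13654), Egr4 (13656), Nr4a1 (15370), Arc (11838) and Bdnf (12064). All 10 were among the 18922 genes listed, and all 10 passed the filter on low counts, which kept 15329 genes. No label records neuronal activity, so the name of the group is background and not a measurement.

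Polyadenylated RNA was sequenced from brain tissue of male C57Bl6 mice aged 8 to 10 weeks, either Trem2 wild type (WT) or Trem2 knockout (KO). Trem2 encodes a surface receptor of microglia and macrophages that binds lipids; the labels do not describe the knockout allele. Every animal had a photothrombotic stroke: Rose Bengal, a light-activated dye, was injected at 50 mg/kg, and a 125 mW laser of 525 nm then closed the vessels of a cortical circle 3 mm across. At 7 days the contralateral side, the peri-infarct zone and the infarct core were isolated with the help of TTC staining, which marks living tissue. Each genotype and region has 3 libraries, 18 in 6 groups. The contralateral tissue is the other hemisphere of injured mice, and uninjured mice were not analysed here. Handling before death and the hour of collection, both of which are known to affect these genes, are not given in the sources used here. The labels do not say whether replicates are separate animals, so each p-value reflects sample-to-sample spread alone, part of which may be technical.

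In neurons, calcium that enters through NMDA receptors and L-type channels activates kinases that act on CREB, SRF and MEF2 proteins bound at the promoters of these genes. The first products are mostly transcription factors: Npas4, a neuron-restricted partner of ARNT-type proteins that adjusts inhibitory synapses; Fos, Fosb and Junb, subunits of the AP-1 dimer; the zinc finger proteins Egr1, Egr2 and Egr4; and the orphan nuclear receptor Nr4a1. Arc acts at the synapse itself, where it drives the internalisation of AMPA receptors, and Bdnf encodes a secreted neurotrophin. Fos, Junb, Egr1 and Nr4a1 are also induced by growth factors, cytokines and injury in many cell types other than neurons, whereas Npas4 and Arc are largely neuronal.

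Some promoters are shown as examples of the short CREB-type letters that all 8 matched genes carry. Shown are those of Npas4, which fell most in the core, of Fos and Junb, which were not called lower there, and of the secreted Bdnf. They are RefSeq sequences of mouse build GRCm38.p6 from 250 bases before to 50 bases after the annotated start, printed 5′ to 3′ on the gene's strand, with TGACG, the core of the cyclic AMP response element, or its complement CGTCA in capitals. The Npas4 promoter lies at chr19:4989922-4990221 on the minus strand, that of Fos at chr12:85473640-85473939 on the plus strand, that of Junb at chr8:84978699-84978998 on the minus strand and the Bdnf promoter shown, 1 of 7 in the table and the 1 of them with these letters, at chr2:109692186-109692485 on the plus strand.
Npas4: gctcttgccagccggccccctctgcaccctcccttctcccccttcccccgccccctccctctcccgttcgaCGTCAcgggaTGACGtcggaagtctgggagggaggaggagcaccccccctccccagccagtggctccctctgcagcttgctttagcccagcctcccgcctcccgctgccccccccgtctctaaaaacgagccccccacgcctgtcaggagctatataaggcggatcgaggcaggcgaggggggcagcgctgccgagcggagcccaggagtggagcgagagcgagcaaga
Fos: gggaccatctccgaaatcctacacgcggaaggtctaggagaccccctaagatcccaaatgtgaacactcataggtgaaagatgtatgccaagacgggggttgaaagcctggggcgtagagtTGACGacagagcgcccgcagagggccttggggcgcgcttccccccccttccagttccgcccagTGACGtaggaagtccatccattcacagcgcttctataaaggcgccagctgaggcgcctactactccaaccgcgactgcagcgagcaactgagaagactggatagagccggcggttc
Junb: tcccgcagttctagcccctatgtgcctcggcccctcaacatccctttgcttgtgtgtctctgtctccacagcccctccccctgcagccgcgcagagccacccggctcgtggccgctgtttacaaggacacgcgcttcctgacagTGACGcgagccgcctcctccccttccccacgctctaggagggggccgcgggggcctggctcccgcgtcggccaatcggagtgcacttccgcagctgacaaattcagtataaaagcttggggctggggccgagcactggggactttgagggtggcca
Bdnf: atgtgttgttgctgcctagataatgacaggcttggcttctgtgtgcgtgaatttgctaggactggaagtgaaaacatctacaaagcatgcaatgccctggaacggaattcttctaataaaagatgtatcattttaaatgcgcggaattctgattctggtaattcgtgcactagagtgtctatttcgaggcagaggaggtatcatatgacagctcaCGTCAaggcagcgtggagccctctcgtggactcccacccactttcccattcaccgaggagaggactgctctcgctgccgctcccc

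RefSeq promoters were matched for 8 of the 10 genes, 18 promoters in all, and not for Arc and Egr1. TGACG was present on either strand in at least 1 promoter of 8 of these 8 genes and in 10 of their 18 promoters, against 23% of 27025 genes and 20.8% of 32851 promoters of the same length. Its matches began 179 and 169 bases before the start in Npas4, 129 and 66 before it in Fos, 106 before it in Junb and 35 before it in the Bdnf promoter shown. The full palindrome, TGACG followed directly by TCA, was in 0 of the 18 promoters, against 1.79% of all. The AP-1 site, TGACTCA or TGAGTCA, was also in 0 of them, against 5.2%. A CArG box, the SRF site, was found in 4 promoters, all of Egr2, against 1.63% of all. An EGR site, GCG, GGG and GCG in direct succession, was in 1 promoter each of Fosb and Nr4a1 (2 of 18, against 2.91%), and TATAAA was in 1 each of Fos and Junb (2 of 18, against 13.6%). Genes with several annotated starts count more than once among the promoters, and a match of letters is not a measured binding site.

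Total counts ran from 16993970 to 17691795 in 17 libraries, and 1 library stood apart. In the WT core library of replicate 3 the total was 18713762, the 10 most abundant genes took 15.5% of the counts (3.27% to 5.38% in the others), and 5 markers of all neurons summed to 15.5 CPM (counts scaled to a common library size) against 3380 and 3890 in the other WT core libraries. Its markers of astrocytes (858 CPM) and oligodendrocytes (706 CPM) were also below those of the other WT core libraries (7612 to 8622 and 4496 to 5799 CPM), and its fibroblast markers were higher (3318 against 1042 to 1078 CPM). Each result is therefore given from the fit of all 18 libraries and from the fit of the other 17, in which WT core has 2 libraries. Trem2 itself was at 20.5 CPM or more in every WT library and between 0.337 and 8.24 CPM in the KO libraries.

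On the length-scaled TPM scale, on which genes can be compared, Egr1 was the most abundant of the 10 in WT contralateral tissue at 340 ± 65.2 TPM (SD, n = 3). Arc followed at 249 ± 49.4, then Nr4a1 at 107 ± 17.7, Junb at 97.5 ± 12.3, Fos at 50.7 ± 4.92, Egr4 at 36.9 ± 9.41 and Bdnf at 18.7 ± 4.43 TPM. Fosb (12.5 ± 3.62), Egr2 (12.5 ± 2.58) and Npas4 (12 ± 2.93) closed the order. Nr4a1 and Junb did not differ beyond their spread, nor did Fosb, Egr2 and Npas4. In KO contralateral tissue Egr1 led at 218 ± 15.8 TPM, ahead of Arc at 160 ± 62.9 TPM, and Junb (117 ± 23.5) and Nr4a1 (113 ± 23.4) again lay within each other's spread. In KO core the order had changed at the top, with Junb at 112 ± 18.6 and Egr1 at 91.1 ± 26.7 TPM within each other's spread, Fos at 65.9 ± 7.32, and Npas4 lowest at 1.82 ± 0.309 TPM.

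**Figure D1:**
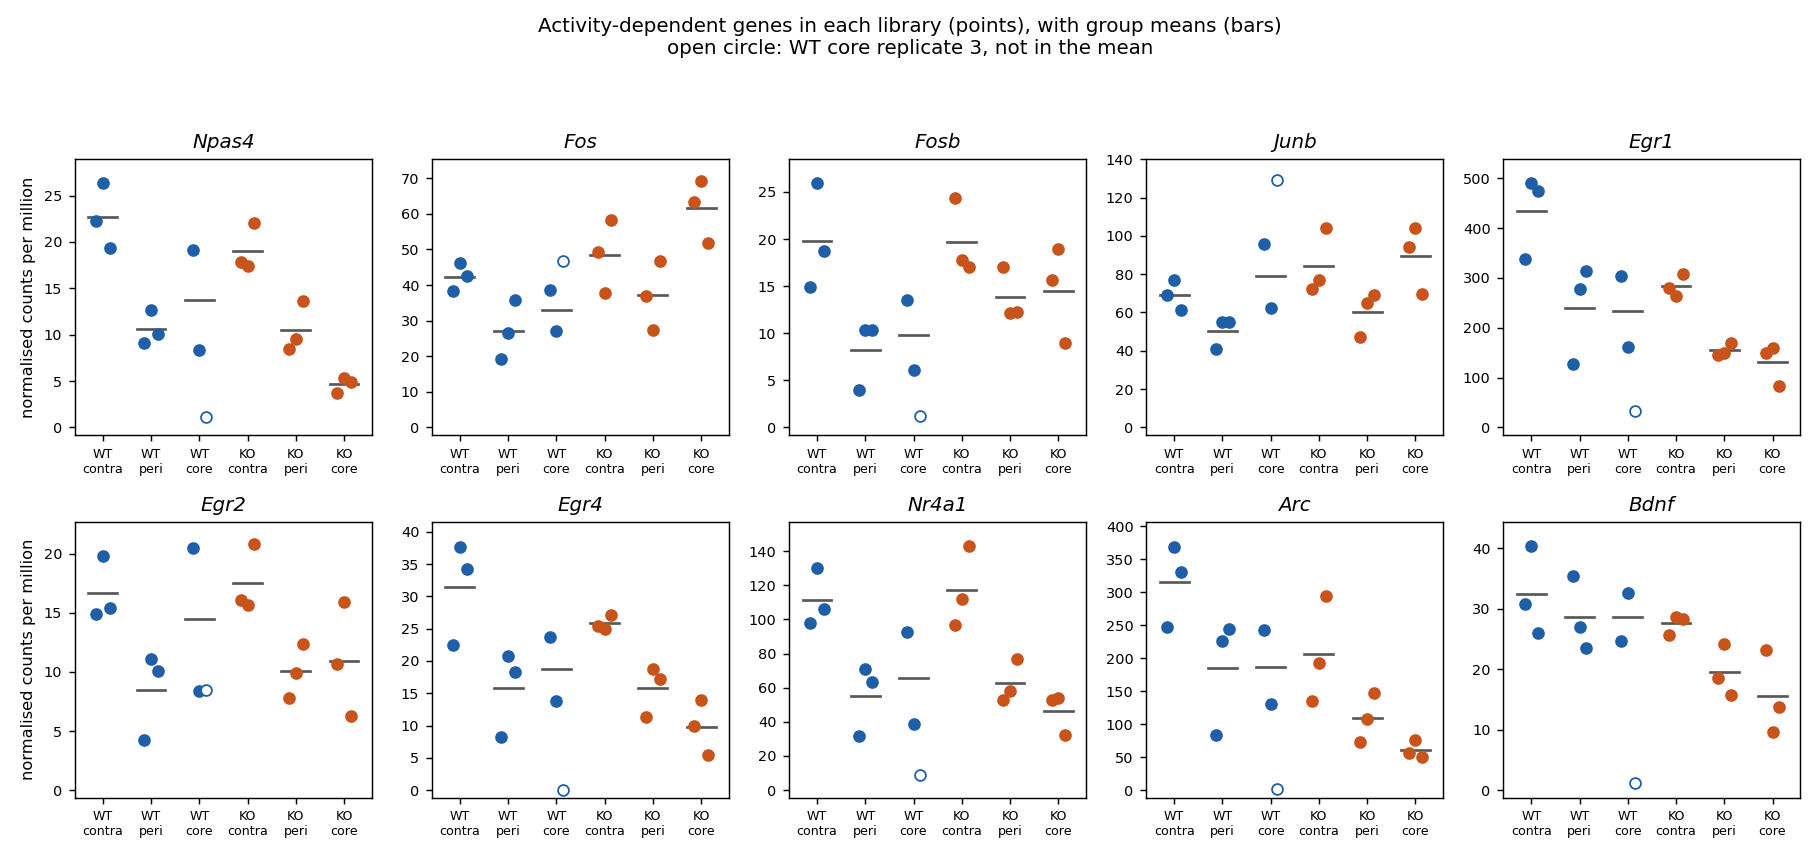
Normalised CPM (vertical axis, linear and different for each gene) of the 10 genes in the 6 groups; each point is 1 library, bars are group means, and the open circle is WT core replicate 3, which the means leave out. In peri-infarct tissue 9 genes in WT and 7 in KO had every library below every contralateral library of the same genotype.

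The peri-infarct zone, tissue that survives beside the infarct, was compared with the contralateral side to ask how the response to the lesion appears in each genotype. With both genotypes averaged, 9 of the 10 genes fell in the fit of 17 libraries, each to between 49.1% and 69.4% of the contralateral level, and Bdnf was at 76.2% without passing the test. Npas4 changed most, with a log2 fold change of -1.03 ± 0.18 (SE; edgeR adjusted p = 0.00059), and Nr4a1 followed at -1.01 ± 0.24 (adjusted p = 0.0048). The zinc finger genes fell by like amounts: Egr2 by 0.94, Egr1 by 0.92 and Egr4 by 0.91 on the log2 scale. Fewer cells that transcribe a gene and less RNA per cell cannot be told apart in these bulk samples.

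The individual libraries show the same ordering. Npas4 stood at 22.3, 26.3 and 19.3 CPM in the 3 WT contralateral libraries and at 9.15, 12.7 and 10.1 CPM in the WT peri-infarct libraries. In KO it stood at 17.8, 17.4 and 22 CPM contralaterally and at 8.46, 9.57 and 13.6 CPM beside the infarct. In both genotypes every peri-infarct library lay below every contralateral one. Nr4a1 was at 97.8, 130 and 106 CPM in WT contralateral tissue and at 31.5, 70.8 and 63.6 CPM in WT peri-infarct tissue. In KO its values were 96.8, 112 and 143 CPM contralaterally and 53, 57.9 and 76.7 CPM in peri-infarct tissue, again with no overlap. Both genotypes had Nr4a1 near 50% of its contralateral level (48.5% in WT and 50.6% in KO).

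Among the AP-1 subunits, Fosb had the steepest WT ratio of the 10 genes, 40.3% of contralateral, although its KO ratio was 66.6%. Fosb read 14.9, 25.9 and 18.7 CPM in WT contralateral libraries and 4.02, 10.3 and 10.3 CPM in WT peri-infarct libraries. In KO it read 24.4, 17.8 and 17 CPM contralaterally and 17, 12.1 and 12.3 CPM beside the infarct, where the highest peri-infarct and the lowest contralateral library were level. Fos and Junb fell least of the 9: Fos by 0.57 ± 0.17 (adjusted p = 0.019) and Junb by 0.53 ± 0.15 (adjusted p = 0.013) on the log2 scale in the fit of 17 libraries. Fos was at 38.3, 46.1 and 42.4 CPM in WT contralateral and 19.2, 26.6 and 35.7 CPM in WT peri-infarct libraries, without overlap, and its KO values of 49.4, 37.8 and 58.4 against 37, 27.4 and 46.8 CPM overlapped.

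Egr1, the most abundant member, was at 337, 490 and 474 CPM in WT contralateral and at 128, 278 and 314 CPM in WT peri-infarct libraries. Its KO libraries were at 279, 263 and 307 CPM contralaterally and at 146, 149 and 169 CPM beside the infarct, with no overlap in either genotype. Arc had no overlap in WT (247, 369 and 331 against 84.2, 226 and 244 CPM) and overlapped in KO (135, 192 and 294 against 72.3, 108 and 147 CPM). Its change over both genotypes was -0.90 ± 0.29 (adjusted p = 0.026), the highest adjusted p of the 9. Leaving out any of 4 libraries (WT contralateral 2 or 3, KO contralateral 3, KO peri-infarct 1) moved that adjusted p to between 0.052 and 0.069, and the other 8 genes passed without each of the 12 peri-infarct and contralateral libraries in turn.

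Counted over the genes, the fit of 18 libraries called 0 of 10 in this comparison of both genotypes (edgeR; 11.4% of all tested genes were called in either direction), with 7 of 10 at an unadjusted p under 0.05 and 3 of 10 called by DESeq2. The fit of 17 libraries called 9 of 10 lower and 0 higher, where 17.1% of 15432 tested genes were called lower and 19.9% higher. No peri-infarct or contralateral library differs between these fits, and a fit of only the 12 libraries compared also called 9. The median log2 fold change of the 10 genes was -0.91, against -0.02 over all tested genes, in the fit of 17 libraries. In WT alone the 18-library fit called 0 (3.27% of genes called; 3 of 10 at an unadjusted p under 0.05) and the 17-library fit called 3 lower, Npas4, Fosb and Nr4a1 (5.34% of genes lower, 14.2% higher). Of these calls, that of Npas4 held without each WT contralateral or peri-infarct library, that of Fosb was lost without 3 of the 6 and that of Nr4a1 without 5 of the 6. In WT the deviations of same-numbered contralateral and peri-infarct libraries were correlated in all 3 pairs, and with the replicate number as a block Npas4 (edgeR adjusted p = 0.012) and Fosb (0.032) passed and Nr4a1 did not (0.073). In KO alone they called 0 (4.48%; 0 of 10 at an unadjusted p under 0.05) and 1 lower, Npas4 (7.61% lower, 13.7% higher), a call that was lost without KO contralateral 3 (adjusted p = 0.082) or KO peri-infarct 1 (0.088) or 2 (0.068). Without a test, 9 of 10 genes in WT had all peri-infarct libraries below all contralateral ones, where 11.3% of tested genes did, and 7 of 10 in KO, where 12.2% did.

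The difference between the genotypes in this response was tested directly and was not called for any of the 10 genes, in the fit of 18 or of 17 libraries (0% of all genes called in either, 0 of 10 genes at an unadjusted p under 0.05 in either). The largest estimate, for Fosb, was 0.72 ± 0.53 on the log2 scale, so that a difference between the genotypes of 1 log2 unit is within 1 SE of it.

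**Figure D2:**
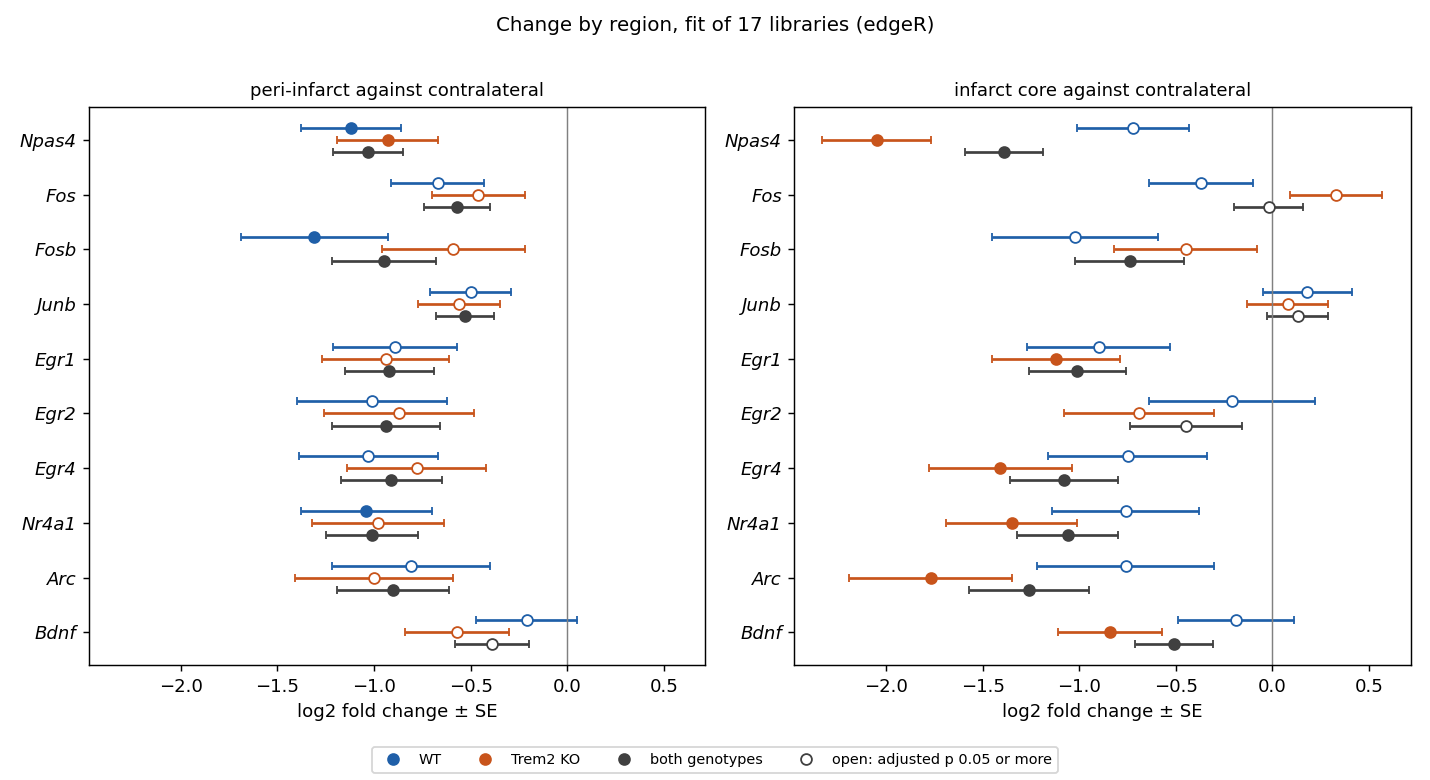
Log2 fold change ± SE (horizontal axis) of each gene in peri-infarct tissue (left) and infarct core (right) against contralateral tissue, in WT, KO and the mean of both, from the edgeR fit of 17 libraries; filled points passed an adjusted p of 0.05. All peri-infarct points lie below 0. In the core the points of Fos and Junb for the mean of both genotypes lie near 0, and KO Npas4 and Arc lie farthest below it.

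In the infarct core the 10 genes did not move as a block. Npas4, Arc, Egr4, Nr4a1, Egr1, Fosb and Bdnf fell when both genotypes were averaged, to between 38.3% and 70% of contralateral in the fit of 17 libraries, while Fos (98.8%), Junb (109%) and Egr2 (73.3%) did not pass the test. The steepest falls were those of the largely neuronal Npas4, by 1.39 ± 0.20 (SE; edgeR adjusted p = 3.3e-05), and Arc, by 1.26 ± 0.31 (adjusted p = 0.0032). For Fos the estimate was -0.02 ± 0.18 and for Junb 0.13 ± 0.16. By genotype, Fos was at -0.37 ± 0.27 in WT and 0.33 ± 0.24 in KO, and neither passed.

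In KO core Npas4 was at 3.76, 5.29 and 4.86 CPM, below each of the 3 KO peri-infarct and the 3 KO contralateral libraries, and its level was 24.2% of contralateral. In WT core it was at 19.1 and 8.38 CPM, and at 1.17 CPM in the library that stood apart. Arc was at 56.9, 75.9 and 50.7 CPM in KO core, 29.4% of contralateral. The WT core values of Arc, 243 and 131 CPM and 0.973 CPM in the library apart, reached from just below the lowest WT contralateral library to near 0. Egr4 was at 10, 13.9 and 5.45 CPM in KO core, at 23.7 and 13.8 CPM in WT core and had a count of 0 in the library apart.

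Fos and Junb took another course in KO core. Fos stood at 63.4, 69.3 and 51.9 CPM there, above each of the KO peri-infarct libraries (37, 27.4 and 46.8 CPM). Junb stood at 94.2, 104 and 69.8 CPM against 47.3, 64.7 and 69 CPM, a separation of less than 1 CPM between the nearest libraries. Against peri-infarct tissue Fos rose by 0.79 ± 0.24 (edgeR adjusted p = 0.017) and Junb by 0.63 ± 0.21 (adjusted p = 0.028) in the fit of 17 libraries, while Npas4 fell by 1.12 ± 0.28 (adjusted p = 0.006). The Npas4 call held without each of the 6 KO libraries; the Fos call was lost without KO core 1 or 2 or KO peri-infarct 1 or 2 (adjusted p from 0.051 to 0.074), and the Junb call without KO core 1 or 2 or KO peri-infarct 1 (0.089 to 0.14). In WT core Fos was at 38.7 and 27 CPM and Junb at 95.6 and 62.2 CPM. In the library apart, where Arc and Egr4 were near or at 0, Fos was at 46.8 CPM and Junb at 129 CPM, the highest Junb value of all 18 libraries.

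Egr1, Egr2 and Nr4a1 were intermediate. Egr1 in KO core, at 150, 159 and 82.4 CPM, overlapped KO peri-infarct tissue and lay below each contralateral library (45.9%, adjusted p = 0.0096). Egr2 in KO core was at 10.7, 15.9 and 6.24 CPM, overlapped contralateral tissue and did not pass (62.2%, adjusted p = 0.15). Nr4a1 in KO core was at 52.8, 53.7 and 32.4 CPM, 39.2% of contralateral (adjusted p = 0.004). Bdnf in KO core was at 23.2, 9.63 and 13.7 CPM, 55.8% of contralateral (adjusted p = 0.016), against 25.7, 28.7 and 28.3 CPM contralaterally. Its call was lost without KO core 2 (adjusted p = 0.062) or KO core 3 (0.056). The p values in this paragraph are from edgeR's fit of 17 libraries.

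For core against contralateral with both genotypes averaged, the fit of 18 libraries called 3 of 10 lower, Npas4 (-1.64), Egr1 (-1.25) and Nr4a1 (-1.29 on the log2 scale), where 53.7% of tested genes were called in either direction. The fit of 17 libraries called 7 lower and 0 higher (31.3% of genes lower, 31.8% higher), with a median log2 fold change of -0.87 against -0.03 over all genes. Of the 7, Npas4, Arc, Egr1, Egr4 and Nr4a1 passed without each of the other 11 core and contralateral libraries in turn, the call of Fosb was lost without 5 of them and that of Bdnf without 7. In KO alone the fits called 1 lower, Npas4 (23.0% of genes called), and 6 lower, with Arc, Egr1, Egr4, Nr4a1 and Bdnf added (27.8% lower, 29.6% higher). The Npas4 call of the 18-library fit in KO was lost without 4 of the 7 libraries left out in turn, with adjusted p up to 0.081. In WT alone both fits called 0 (18 libraries, 40.6% of genes called, 4 of 10 at an unadjusted p under 0.05; 17 libraries, 16.6% of genes lower and 23.6% higher, 3 of 10), while DESeq2 called 3 in each. The 3 of 10 called in the fit of 18 libraries is a smaller share than that of all tested genes.

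For core against peri-infarct tissue in KO, the fit of 18 libraries called 0 of 10 genes (0% of all genes called; 2 of 10 at an unadjusted p under 0.05; DESeq2 also called 0), and the fit of 17 libraries called Npas4 lower and Fos and Junb higher, where 15.8% of genes were called lower and 24.3% higher. In WT the fit of 18 libraries called 1, Junb, higher by 0.93 ± 0.25 (edgeR adjusted p = 0.036; 13.0% of genes called). This call was lost without any of the 3 WT peri-infarct libraries (adjusted p from 0.097 to 0.15). Without the WT core library that stood apart it was higher by 0.68 ± 0.23 (adjusted p = 0.1) and 0 of 10 genes were called, where 0.486% of genes were called lower and 4.88% higher. 1 of 10 genes had an unadjusted p under 0.05 in that fit, and DESeq2 called 1. The 10 genes lay between -0.01 ± 0.36 (Egr1) and 0.80 ± 0.44 (Egr2) on the log2 scale there.

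The core response was also compared between the genotypes, and the test of that difference called 0 of 10 genes in the fit of 18 libraries (0% of all genes called, 0 of 10 at an unadjusted p under 0.05) and 0 of 10 in the fit of 17 (0%, 1 of 10). DESeq2 likewise called 0 in each. The 1 gene with a small unadjusted p was Npas4, with a difference of -1.32 ± 0.39 on the log2 scale (edgeR unadjusted p = 0.0047 and adjusted p = 0.36 in the fit of 17 libraries), and it was -0.80 ± 0.80 (adjusted p = 0.98) with all 18 libraries.

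Loss of Trem2 was compared with WT within each region and over their mean. In contralateral tissue the 10 genes lay between -0.59 ± 0.32 (Egr1) and 0.31 ± 0.21 (Junb) on the log2 scale in the fit of 17 libraries, and 0 were called (0.0259% of genes lower, 0.0130% higher; 0 of 10 at an unadjusted p under 0.05). The fit of 18 libraries also called 0 (0.00652% of genes; 0 of 10). Egr1 was the gene of the 10 whose libraries did not overlap, at 279, 263 and 307 CPM in KO against 337, 490 and 474 CPM in WT. Being 1 of 10 it is near the 10.5% of all genes whose KO libraries all lay below the WT libraries.

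In peri-infarct tissue the values lay between -0.78 ± 0.41 (Arc) and 0.73 ± 0.38 (Fosb), and 0 were called in the fit of 17 libraries (0.0778% of genes lower, 0.0389% higher; 0 of 10 at an unadjusted p under 0.05) or of 18 (0.00652%; 0 of 10). Npas4 differed by -0.03 ± 0.27 there in the fit of 17 libraries, so an increase or decrease of 1 log2 unit lies more than 3 SE from the estimate. In the fit of 18 libraries Npas4 was at -0.02 ± 0.56, where that does not hold. DESeq2 called 0 of 10 in contralateral and in peri-infarct tissue with 18 and with 17 libraries.

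In the core, with 2 WT libraries, Npas4 was lower in KO by 1.55 ± 0.30 on the log2 scale, 34.2% of WT (edgeR adjusted p = 0.021). Arc was at 33.1% of WT (adjusted p = 0.075), Bdnf at 54.9% (0.13) and Egr1 at 56.8% (0.23), while Fos was at 190% (0.083), none of which passed. All 3 KO libraries lay on 1 side of both WT libraries for these 5 genes: below them for Npas4, Arc, Bdnf and Egr1 and above them for Fos. The WT core library left out was below every KO core library for Npas4 (1.17 CPM), Arc (0.973), Bdnf (1.17) and Egr1 (33.3). The separations of these genes therefore depend on leaving out that library, which was set apart in part by its low neuronal markers. For Fos, at 46.8 CPM, it lay on the side of the other WT libraries. With 3 libraries against 2, 18.6% of all genes lay wholly below and 18.1% wholly above. The Npas4 call rests on few libraries, since its adjusted p was 0.061 without KO core 2 and 0.17 without WT core 1, when the estimate was -0.86 against a single remaining WT library. That library is assumed to vary like the other groups. The 17-library fit called 1 of 10 genes lower and 0 higher (2.06% of genes lower, 0.998% higher), with a median log2 fold change of -0.65 against 0.02 over all genes. The fit of 18 libraries called 0 (0.0130% of genes), with 1 of 10, Fos, at an unadjusted p under 0.05 and 0 called by DESeq2.

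Averaged over the 3 regions, the fit of 17 libraries placed Arc at 50.5%, Egr1 at 62.2%, Npas4 at 66% and Fos at 144% of the WT level. These 4 passed the test (edgeR adjusted p of 0.029, 0.048, 0.035 and 0.042), 3 lower and 1 higher, where 5.20% of genes were called lower and 2.26% higher. Bdnf was at 68.5% (adjusted p = 0.053), and Egr2 (98.6%) and Nr4a1 (94.9%) were near the WT level. The calls are close to the threshold: leaving out 1 of the 17 libraries at a time kept 0 to 3 of them, with 0 kept without KO contralateral 1 or WT contralateral 3. Arc was kept in 14 of these 17 fits, Npas4 in 9, Fos in 5 and Egr1 in 4. The fit of 18 libraries called 0 of 10 (0.228% of genes; 1 of 10 at an unadjusted p under 0.05), and DESeq2 called 0 with 18 libraries and 5 with 17. With the replicate number as a block only the Arc call held (edgeR adjusted p = 0.02), in a comparison whose libraries the numbers are not known to pair.

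**Figure D3:**
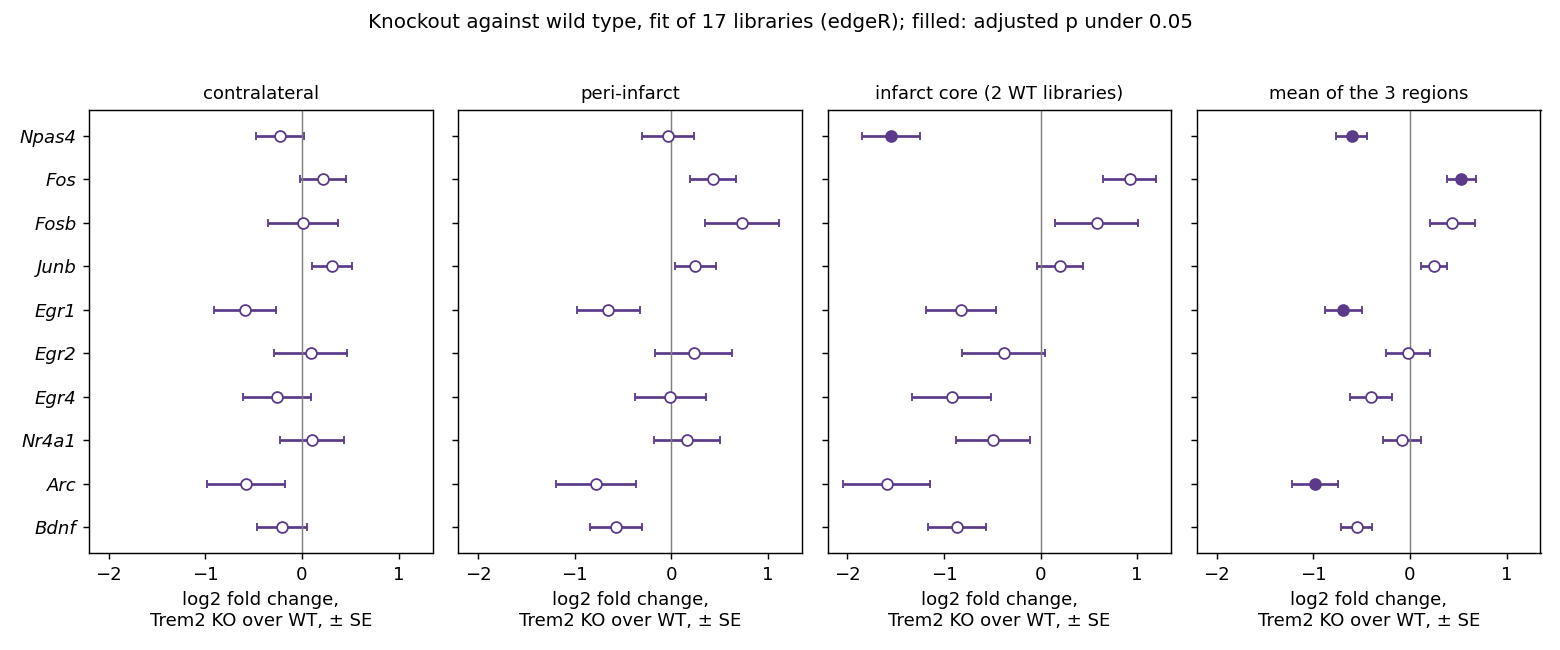
Log2 fold change of KO over WT ± SE (horizontal axis) for each gene, by region and over the mean of regions, from the edgeR fit of 17 libraries; filled points passed an adjusted p of 0.05. Npas4 passed in the core, and Npas4, Fos, Egr1 and Arc passed over the mean of regions.

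Levels of neuronal markers also differed by region, though not always in step with the 10 genes. The summed CPM of 5 markers of all neurons (Rbfox3, Snap25, Syt1, Stmn2 and Eno2) ran from 5561 to 6751 in WT contralateral tissue, from 4457 to 4857 in WT peri-infarct tissue and stood at 3380 and 3890 in WT core without the library apart. In KO it ran from 5320 to 5563, from 4021 to 4283 and from 2643 to 2746. All 5 of these markers passed the test as lower in peri-infarct tissue and in the core over both genotypes, with median log2 fold changes of -0.38 and -0.78 in the fit of 17 libraries, as did 5 and 6 of 6 markers of inhibitory neurons and 3 and 7 of 9 of excitatory cortical neurons. The fit of 18 libraries called 0 of these 20 neuronal markers in peri-infarct tissue and 2, both inhibitory, in the core. The part of neuronal loss in the results for the 10 genes was not tested. In peri-infarct tissue the median of the 10 genes was -0.91, and marker medians were -0.30 for excitatory and -0.57 for inhibitory neurons. In the core the median of the 10 genes lay closer to that of the all-neuron markers than in peri-infarct tissue. Both statements are descriptions without a test.

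Each gene was also expressed per 1000 CPM of the all-neuron markers, as a description without a test. In KO, Npas4 stood at 3.51 ± 0.539 in KO contralateral, 2.53 ± 0.742 in KO peri-infarct and 1.72 ± 0.278 in KO core libraries (SD, n = 3), and Arc at 38.2 ± 15.6, 26.2 ± 9.85 and 22.7 ± 4.41. Fos stood at 8.96 ± 2.1, 8.9 ± 2.62 and 22.9 ± 2.89 and Junb at 15.5 ± 3.43, 14.4 ± 3.1 and 33.2 ± 6.03. On this scale the KO core libraries were the highest KO libraries for Fos and Junb (19.6 or more and 26.4 or more). They did not overlap the other KO regions. The marker sum in the denominator was 2643 to 2746 CPM in KO core and 5320 to 5563 CPM in KO contralateral tissue. A gene with a steady CPM therefore rises on this scale in the core, and the ratio does not show which cells transcribe it. Egr1 (52.2 ± 5.28, 37 ± 4.37 and 48.4 ± 15), Nr4a1 (21.6 ± 4.76, 15 ± 3.56 and 17.2 ± 4.28) and Bdnf (5.07 ± 0.314, 4.65 ± 0.892 and 5.79 ± 2.63) followed neither course in KO. In the 2 WT core libraries Npas4 was at 2.48 and 4.91 and Arc at 38.8 and 62.4, which took in their WT contralateral means of 3.83 and 52.7, and Fos was at 8 and 9.95 and Junb at 18.4 and 24.6. In WT, Npas4 was at 3.83 ± 0.898 in contralateral and 2.28 ± 0.381 in peri-infarct tissue and Nr4a1 at 18.7 ± 3.63 and 11.8 ± 4.2. Each was without overlap between the WT regions, while Fos (7.08 ± 0.922 and 5.78 ± 1.52) and Junb (11.7 ± 2.31 and 10.7 ± 1.38) overlapped. In KO these regions overlapped for Npas4 (peri-infarct up to 3.38, contralateral down to 3.13) and for Nr4a1 (up to 19.1 and down to 17.8). They did not overlap in KO for Egr1 (peri-infarct up to 42, contralateral down to 47.3) or Egr4 (up to 4.37 and down to 4.5). The remaining genes overlapped there. The share of all genes without overlap on this scale was not computed.

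Markers of other cells rose over the same steps. All 8 markers of microglia and macrophages were higher in peri-infarct tissue (median log2 fold change 1.41) and in the core (2.23) over both genotypes in the fit of 17 libraries, and the 4 fibroblast markers were higher in the core (4.64). The summed microglial and macrophage markers ran from 324 to 414 CPM in KO contralateral, from 924 to 1082 in KO peri-infarct and from 1424 to 2166 CPM in KO core libraries. Their part in the levels of Fos and Junb was not tested. In the genotype comparison of the core, 2 of 5 all-neuron and 2 of 9 excitatory markers passed as lower in KO (medians -0.42 and -0.60), where 2.06% of all genes did. The summed excitatory markers were 1014 to 1471 CPM in KO core against 1930 and 2192 CPM in WT core. Of the markers of striatal projection neurons, all 8 passed as lower in the core over both genotypes with 18 and with 17 libraries (medians -1.93 and -1.66), and 0 passed in peri-infarct tissue (edgeR; 0 at an unadjusted p under 0.05). In KO against WT over regions all 8 lay above 0 (medians 0.83 and 0.67) and 0 passed (edgeR; 3 of 8 at an unadjusted p under 0.05 in each fit), with summed levels of 581 to 1214 CPM in KO against 252 to 638 CPM in WT contralateral tissue. They were also uneven within a group, from 218 to 1014 CPM in WT peri-infarct tissue, and how far dissections took in striatum was not tested.

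**Figure D4:**
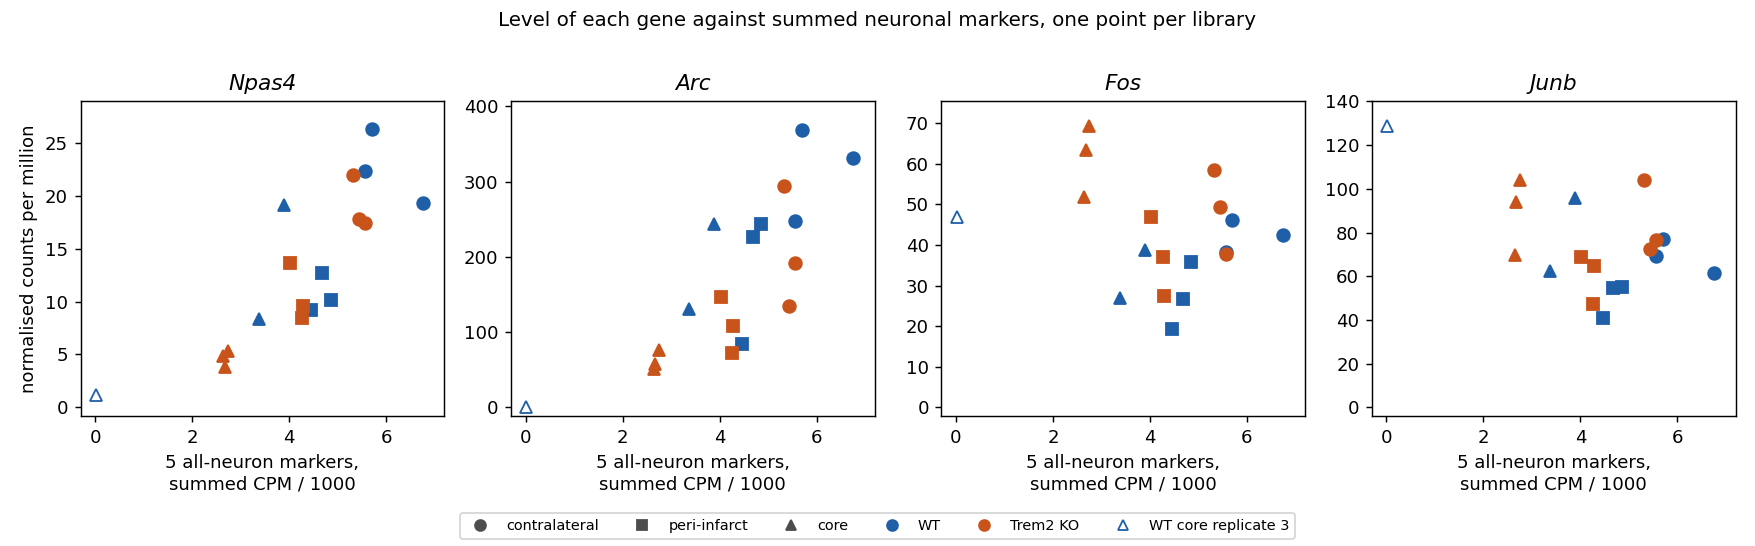
Normalised CPM of Npas4, Arc, Fos and Junb (vertical axes) against the summed CPM of 5 all-neuron markers divided by 1000 (horizontal axis), 1 point for each of 18 libraries; shape gives the region and colour the genotype, and the open triangle is WT core replicate 3. Npas4 is lowest in KO core and in the open triangle. Arc is low there too, but its KO core libraries overlap the KO peri-infarct ones. Fos and Junb are not lowest there.

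Within groups the 10 genes varied more than most genes. The SD of log2 CPM around the group means over 17 libraries was from 0.28 (Junb) to 0.55 (Arc), against a median of 0.16 for all tested genes, and was above that of 75.6% to 93.2% of genes. The deviations were shared: the 36 pairs among the 9 genes other than Bdnf had Pearson correlations from 0.42 to 0.96, with a median of 0.78 over 17 libraries. Egr2 and Nr4a1 were the closest pair (0.96). Same-numbered contralateral and peri-infarct libraries also deviated alike over the 10 genes, with correlations of 0.76, 0.30 and 0.84 in WT and 0.82, 0.84 and 0.82 in KO. Over all genes the same KO pairs correlated at 0.026, 0.042 and -0.082, so the numbers were not taken as pairing KO libraries. If taken by number all the same, Arc, Fos and Fosb, whose KO values overlapped or met, were lower beside the infarct in each of the 3 KO pairs. The share of all genes that were lower in each of these pairs was not computed. This ordering is therefore a description and gives no weight to their KO falls. Bdnf stood apart from the other 9 genes, with correlations from -0.48 (with Fos) to -0.17 (with Junb). These correlations describe 17 libraries in which all genes share the library and its tissue, and the 2 WT core libraries necessarily deviate in opposite directions.

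By library, the mean deviation of the 9 genes was lowest in WT peri-infarct 1, at -0.67 on the log2 scale, where Arc was at 84.2 CPM against 226 and 244 CPM in the other 2. The same library had fibroblast markers at 455 CPM against 42.8 and 50.6 CPM, markers of infiltrating macrophages at 104 against 34.5 and 48.3 CPM, and excitatory neuron markers at 1801 against 2423 and 2358 CPM, while its all-neuron markers, at 4457 CPM, were near those of the other 2 (4680 and 4857 CPM). The part of this composition in its low values was not tested. It was 0.47 in WT core 1 and -0.47 in WT core 2, and from 0.36 in KO core 2 to -0.43 in KO core 3. WT peri-infarct 1 thus enters the WT falls of all 9 genes at once: without it the Npas4 call of WT held, and those of Fosb and Nr4a1 were lost (edgeR adjusted p of 0.094 and 0.15). The genes outside the group whose within-group deviations were most like the mean of the 10 were Fnbp1l (r = 0.93 over 17 libraries), Kcnf1 (0.92), Shc3 (0.92), Atp2b4 (0.90) and Vopp1 (0.90).

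**Figure D5:**
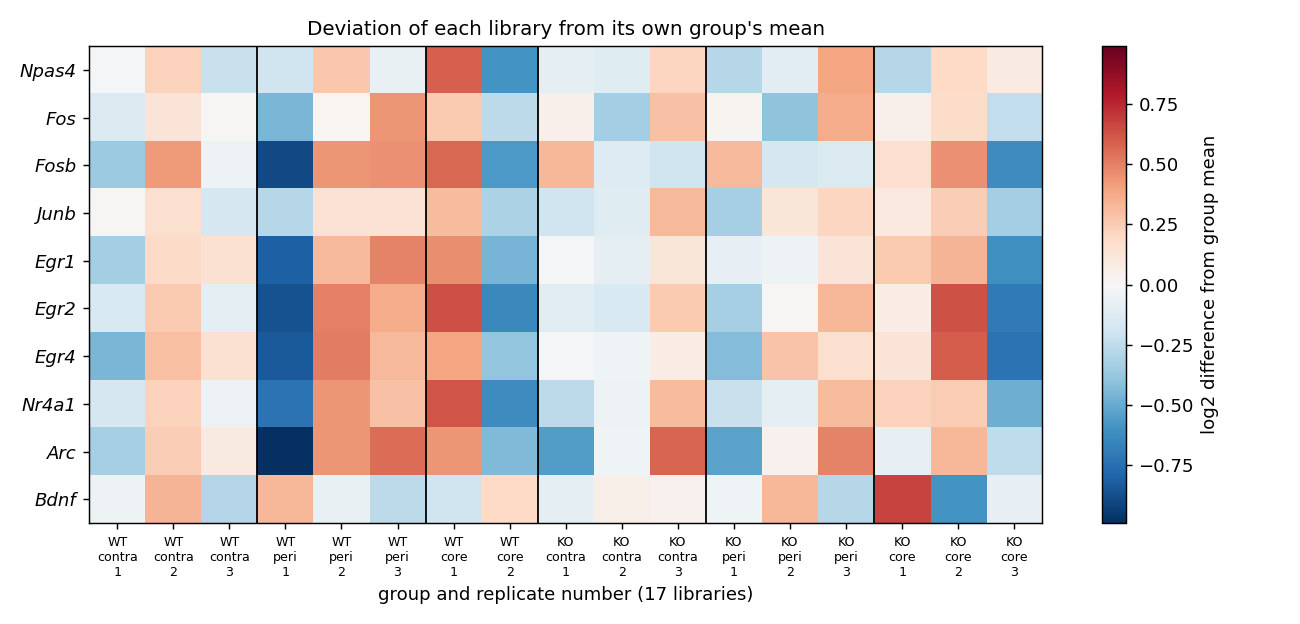
Log2 deviation (colour) of each of the 10 genes (rows) from its group mean in each of 17 libraries (columns, ordered by group and replicate number, with black lines between groups). WT peri-infarct 1 is low in the 9 genes other than Bdnf, with a mean of -0.67, and Bdnf is high where the others are low in several libraries.

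Related genes were counted by list over both genotypes in the fit of 17 libraries, in which 17.1% of all genes were called lower and 19.9% higher in peri-infarct tissue, and 31.3% lower and 31.8% higher in the core. Of 6 other AP-1 subunits, 1 was higher and 1 lower in peri-infarct tissue (median log2 fold change 0.39), each close to the share of all genes, and 4 were higher and 1 lower in the core (0.93). Atf3, a stress-induced partner that marks injured neurons, rose by 2.19 ± 0.22 (edgeR adjusted p = 3.1e-06) in peri-infarct tissue and by 3.37 ± 0.23 (adjusted p = 1e-08) in the core. Fosl2 fell by 0.49 ± 0.13 (adjusted p = 0.0094) in peri-infarct tissue, and Jun, the usual partner of Fos, was at 0.40 ± 0.19 (adjusted p = 0.12). In the core Jun rose by 0.71 ± 0.20 (adjusted p = 0.0071) and Maff by 1.16 ± 0.23 (adjusted p = 0.0004). Atf3 and Fosl2 in peri-infarct tissue and Atf3, Jun and Maff in the core were also called with all 18 libraries.

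Among 10 other activity-regulated transcription factors, 6 were lower and 0 higher in peri-infarct tissue (median -0.36), and 4 lower and 1 higher in the core (-0.35), over both genotypes in the fit of 17 libraries. In peri-infarct tissue Ier5 fell by 0.46 ± 0.15, Crem, which encodes CREB-family activators and repressors, by 0.27 ± 0.08 and Klf10 by 0.41 ± 0.14. In the core Crem fell by 0.29 ± 0.09 and the clock gene Per1 by 0.58 ± 0.17, while Ier2 rose by 0.38 ± 0.16. None of the 10 was called in peri-infarct tissue with 18 libraries, and Crem, Per1 and Ier2 were called in the core with the same signs.

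Of 12 effectors, proteins that act at synapses or are secreted, 8 passed as lower and 0 as higher in peri-infarct tissue (median -0.42; 17.1% of all genes lower), and 10 passed as lower and 2 as higher in the core (-0.76; 31.3% and 31.8% of all genes), in the fit of 17 libraries. The synaptic scaffold gene Homer1 fell by 0.98 ± 0.16 in the core, Plk2, a kinase that weakens overactive synapses, by 0.38 ± 0.09 in peri-infarct tissue and 0.50 ± 0.10 in the core, and the kinase gene Sik1 by 0.41 ± 0.14 and 0.57 ± 0.15. Inhba, a subunit of activin, was at -0.35 ± 0.14 in peri-infarct tissue and did not pass (edgeR adjusted p = 0.059). With 18 libraries 0 of 12 effectors were called in peri-infarct tissue (edgeR), and 7 lower and 1 higher in the core. In KO core against KO peri-infarct tissue Ptgs2, the inducible cyclooxygenase, rose by 0.61 ± 0.17 and Vgf, a neuropeptide precursor, fell by 1.02 ± 0.18 in the fit of 17 libraries.

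Feedback genes, listed here as feedback phosphatases and growth brakes, were mixed. Of 11, 2 were higher and 4 lower in peri-infarct tissue, and 3 were higher and 3 lower in the core (fit of 17 libraries). Zfp36, which destabilises cytokine messages, rose by 1.44 ± 0.17 in peri-infarct tissue and 2.38 ± 0.18 in the core, and Gadd45g rose by 0.33 ± 0.09 and 0.59 ± 0.10. Dusp5, an ERK phosphatase, fell by 0.73 ± 0.16 and 0.55 ± 0.17. Zfp36 and Gadd45g were called in both regions with 18 libraries as well, and Dusp5 in the core.

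Of 12 genes of the upstream route, from the NMDA receptor to CREB, SRF and MEF2 proteins, 2 passed as lower in peri-infarct tissue and 7 in the core, and 0 as higher in either (medians -0.16 and -0.28, 17 libraries). The 2 of 12 in peri-infarct tissue are near the 17.1% of all genes called lower there, and 31.3% were called lower in the core. Srf was at -0.22 ± 0.09 in peri-infarct tissue (edgeR adjusted p = 0.056) and fell by 0.27 ± 0.09 in the core, where Crebbp fell by 0.20 ± 0.06 and Mef2d by 0.27 ± 0.08. Mef2a (0.10 ± 0.08) and Mef2c (-0.44 ± 0.20) did not pass in peri-infarct tissue. With 18 libraries 0 of 12 passed in peri-infarct tissue and 3 in the core, all lower.

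Among genes that process or receive BDNF, Plat, the plasminogen activator that starts its extracellular cleavage, rose by 0.39 ± 0.08 in peri-infarct tissue and 0.77 ± 0.08 in the core, and the protease gene Furin by 0.56 ± 0.07 and 1.22 ± 0.08, both in the fit of 17 libraries. Mmp9, which can also cleave the precursor, rose by 2.36 ± 0.30 in the core, and Ngfr, the receptor of the precursor, was at -0.57 ± 0.33 in peri-infarct tissue (edgeR adjusted p = 0.2). Of the 6 genes 2 were higher and 0 lower in peri-infarct tissue, and 3 higher and 2 lower in the core. The 2 lower genes, named after their values were seen, were the receptor gene Ntrk2 (-0.26 ± 0.09) and the sorting receptor gene Sort1 (-0.36 ± 0.10). With 18 libraries Plat was called higher in peri-infarct tissue, and in the core Plat, Furin and Mmp9 were called higher and Sort1 lower.

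Between the genotypes, averaged over regions in the fit of 17 libraries, 5.20% of all genes were called lower in KO and 2.26% higher. Of the 12 effectors, 5 were lower in KO and 0 higher (median -0.32 against 0.00 for all genes). Homer1 was lower by 0.53 ± 0.13 (edgeR adjusted p = 0.025), while Inhba (-0.36 ± 0.12, adjusted p = 0.072) and Sik1 (0.19 ± 0.12, adjusted p = 0.34) did not pass. Of the 10 other transcription factors, 1 was higher, Klf4 by 0.72 ± 0.20 (adjusted p = 0.044), and 1 was lower; Klf10 was at -0.40 ± 0.11 and Crem at -0.21 ± 0.07 without passing. Of the feedback genes, 2 were higher and 3 lower: Btg2, an antiproliferative gene, was higher by 0.56 ± 0.12 (adjusted p = 0.013), Trib1 lower by 0.55 ± 0.13 (adjusted p = 0.019), and Gadd45g was at 0.25 ± 0.08 (adjusted p = 0.069). Ngfr was higher by 1.08 ± 0.28 (adjusted p = 0.033). None of these lists had a gene called in this comparison with all 18 libraries (35 of all 15329 tested genes were). Over the same mean, 2 of 5 all-neuron markers and 2 of 9 excitatory markers were lower in KO (medians -0.20 and -0.34), and their part in these values was not tested.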

How the data were processed

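Gene expression was measured by RNA sequencing in 18 libraries, which were grouped by the genotype and region in their labels. The authors deposited expected counts, estimated counts that need not be whole (3678 genes, 19.4%, had such a value), and TPM, which the authors scaled for transcript length and library size. Per the submitters' processing notes, HISAT2 2.0.4, Bowtie2, Subread and the build GRCm39 (mm39) were used, with no role stated; the estimator of the counts and any use of strand are not given in the sources used here. Reads of overlapping or near-identical genes may therefore be split. Per the labels, 1 µg of total RNA entered an MGIEasy stLFR library kit.

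Rounded counts went into edgeR 4.0.16 (R 4.3.3), with low counts removed by filterByExpr, TMM scaling and a robust quasi-likelihood F test (6 group means, 12 residual degrees of freedom), with Benjamini-Hochberg adjustment over all tested genes and a threshold of 0.05. Standard errors were taken as |log2 fold change|/√F. CPM are TMM-normalised, log2 CPM used a prior count of 2, and the TPM alternative used log2(TPM + 1). Total counts per library ran from 16993970 to 18713762.

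Fits without WT core replicate 3 stand beside those of all libraries. Alternatives were DESeq2 1.42.0, limma 3.58.1 (voom with sample weights, and trend on TPM), other size factors, no low-count filter, a replicate block, the compared groups alone and leaving out each library. The deviations of all genes from their group means correlated at 0.386 to 0.436 in the 3 same-numbered pairs of WT contralateral and peri-infarct libraries, so the numbers were taken as pairing these; this rests on the data and not on the labels. The methods were tested on simulated data. Genes named were the 10 members, up to 3 genes of each related list with the smallest edgeR p in the comparison described (18 libraries), and the 5 genes most like the members. The members and lists were chosen with earlier results of these data known. Promoters came from a RefSeq table of GRCm38.p6, which is not the build named in the notes, and were matched by symbol.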

Additional observations from a re-analysis of the deposited data

How the results depend on the processing

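Among results for single genes no alternative reversed a called direction. Of the alternatives to the fit of 17 libraries, 366 kept each single-gene result on its side of the threshold, 79 lost a call and 1 gained one, and for the fit of 18 libraries these numbers were 512, 12 and 93. The counts of genes called depended mainly on WT core replicate 3 and on the tool. Against the 18-library counts, limma-voom with sample weights, which weighted that library at 0.02, called 3 of 10 in WT and 5 in KO peri-infarct against contralateral tissue and 9 over both genotypes. For core against contralateral it called 5 in WT, 7 in KO and 8 over both, for core against peri-infarct 0 in WT and 3 in KO, and for KO against WT over regions 4. Fits of only the compared groups called 1, 6 and 9 in the peri-infarct comparisons, 6 in KO core against contralateral, and 0 in WT and 4 in KO core against peri-infarct. DESeq2 called 3 over both genotypes in peri-infarct tissue, 3 in WT core and 5 over both genotypes in the core. RLE size factors called 2 in WT core. On log2(TPM + 1), 2 over both genotypes were called in peri-infarct tissue, 7 in WT core and 8 over both genotypes in the core, and 0 in WT core against peri-infarct.

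With WT core replicate 3 left out, DESeq2 called 7 in WT and 3 in KO peri-infarct tissue, 3 in WT core against contralateral, 1 in WT core against peri-infarct and 3 in KO against WT core, and RLE size factors called 1 in WT core. The cause of these differences was not tested. Leaving out each library in turn from the 18 gave 0 to 3 in WT, 0 to 1 in KO and 0 to 9 over both genotypes for peri-infarct against contralateral, 0 to 4, 0 to 6 and 3 to 7 for the core, 0 to 1 in WT and 0 to 3 in KO for core against peri-infarct, and, for KO against WT, 0 in contralateral and peri-infarct tissue, 0 to 1 in the core and 0 to 4 over regions. From the 17 it gave 1 to 4, 0 to 1 and 8 to 9, then 0 to 4, 5 to 6 and 5 to 7, then 0 and 1 to 3, and then 0, 0, 0 to 2 and 0 to 3. The genotype differences of the responses stayed at 0 throughout.

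Replicate numbers are shared between groups. Over 16 same-numbered pairs of libraries within a genotype, the correlation of deviations ran from -0.196 to 0.436 and exceeded 0.1 in 8. The numbers were taken as pairing libraries in WT peri-infarct against contralateral tissue alone, where all 3 pairs exceeded it, and not in the other comparisons. The 2 same-numbered pairs of WT contralateral and core libraries also exceeded it (0.200 and 0.342), but these 2 core libraries necessarily deviate in opposite directions. The block for comparisons of regions was the number within genotype, applied to all libraries of the fit. With a replicate block the count in WT core against peri-infarct went from 1 to 0 with 18 libraries, and that of KO against WT over regions from 4 to 1 without WT core replicate 3, and the other counts stayed within 1 of their values. Depth was not tested as a limit on the 10 genes. Within-group SDs of genes with low counts were 0.35 (Npas4), 0.53 (Fosb) and 0.54 (Egr2). Those of the abundant Egr1 and Arc were 0.45 and 0.55. The 2 or 3 libraries of each group limit every comparison.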
